A study of Mus musculus with 12 samples.

Results

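The genes described here are 40 genes whose products act in mitosis and in the G2/M transition that precedes it. They were taken by gene symbol. All 40 were found among the 41128 genes of the count and RPKM tables, and all 40 were among the 15347 genes with enough reads to be tested. The RNA of 12 libraries came from mouse haemogenic endothelium, which is the vascular tissue that buds off the first blood cells. The cells were made from embryonic stem cells of the line iSox7, a derivative of Ainv18 in which doxycycline (Dox) switches on a Sox7 transgene. At day 3.5 of embryoid body culture FLK1-positive cells were isolated by sorting, and they spent 48 h in liquid blast medium before Dox was or was not added. The study asked what SOX7 does to RUNX1 target genes while endothelium turns into blood.

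The 6 groups hold 2 libraries each. They are cells with 1 µg/ml Dox for 6 h, cells without Dox at 6 h, cells with Dox for 12 h, cells without Dox at 12 h, cells with Dox for 24 h and cells without Dox at 24 h. Every group comes from the same inducible line, so the untreated cells carry the transgene too. Dox on a line without the transgene was not analysed here, so Dox and SOX7 cannot be told apart. The labels do not say that the 2 libraries of a group came from separate cultures, so each p-value rests on a spread that may be technical.

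A cell enters mitosis when cyclin-dependent kinase 1, bound to cyclin A or cyclin B, becomes active. The chromosomes are then condensed, attached to the spindle through their kinetochores and held by the spindle checkpoint until every one is attached. The anaphase-promoting complex next marks cyclin B and securin for destruction, separase cuts cohesin, and the cell divides. Most genes of this programme are transcribed late in the cell cycle, and their mRNA is scarce in cells that do not divide. Many of them share a promoter arrangement of CCAAT boxes, bound by the factor NF-Y, and a cell cycle genes homology region (CHR), bound by complexes built on the MuvB core. Together with the repressors p130 or p107 these complexes keep the genes silent, and with B-MYB and FOXM1 they activate them.

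The mitotic genes fell with the hours in culture in both arms, and few of them were called with Dox. At 24 h relative to 6 h, 39 of the 40 fell in cells with Dox, where 19.9% of all tested genes were called lower, and 38 of the 40 fell in cells without Dox, where 19.6% were. None rose. The median log2 fold change was -0.51 with Dox and -0.46 without Dox, against medians of 0.00 and 0.01 over all tested genes. With Dox against no Dox, 0 of the 40 genes were called at 6 h (1.54% of all tested genes were called in either direction). The count was 1 at 12 h (3.51% called lower) and 5 at 24 h (6.52% called lower), all of them lower with Dox. Ube2c, the ubiquitin-conjugating enzyme of the anaphase-promoting complex, was not called in any of these comparisons. The 5 calls at 24 h depended on single libraries. In 25 of the 40 both Dox libraries of 24 h were below both untreated ones, against 26.0% of all tested genes, and in 2 above, against 23.5%.

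**Figure D1:**
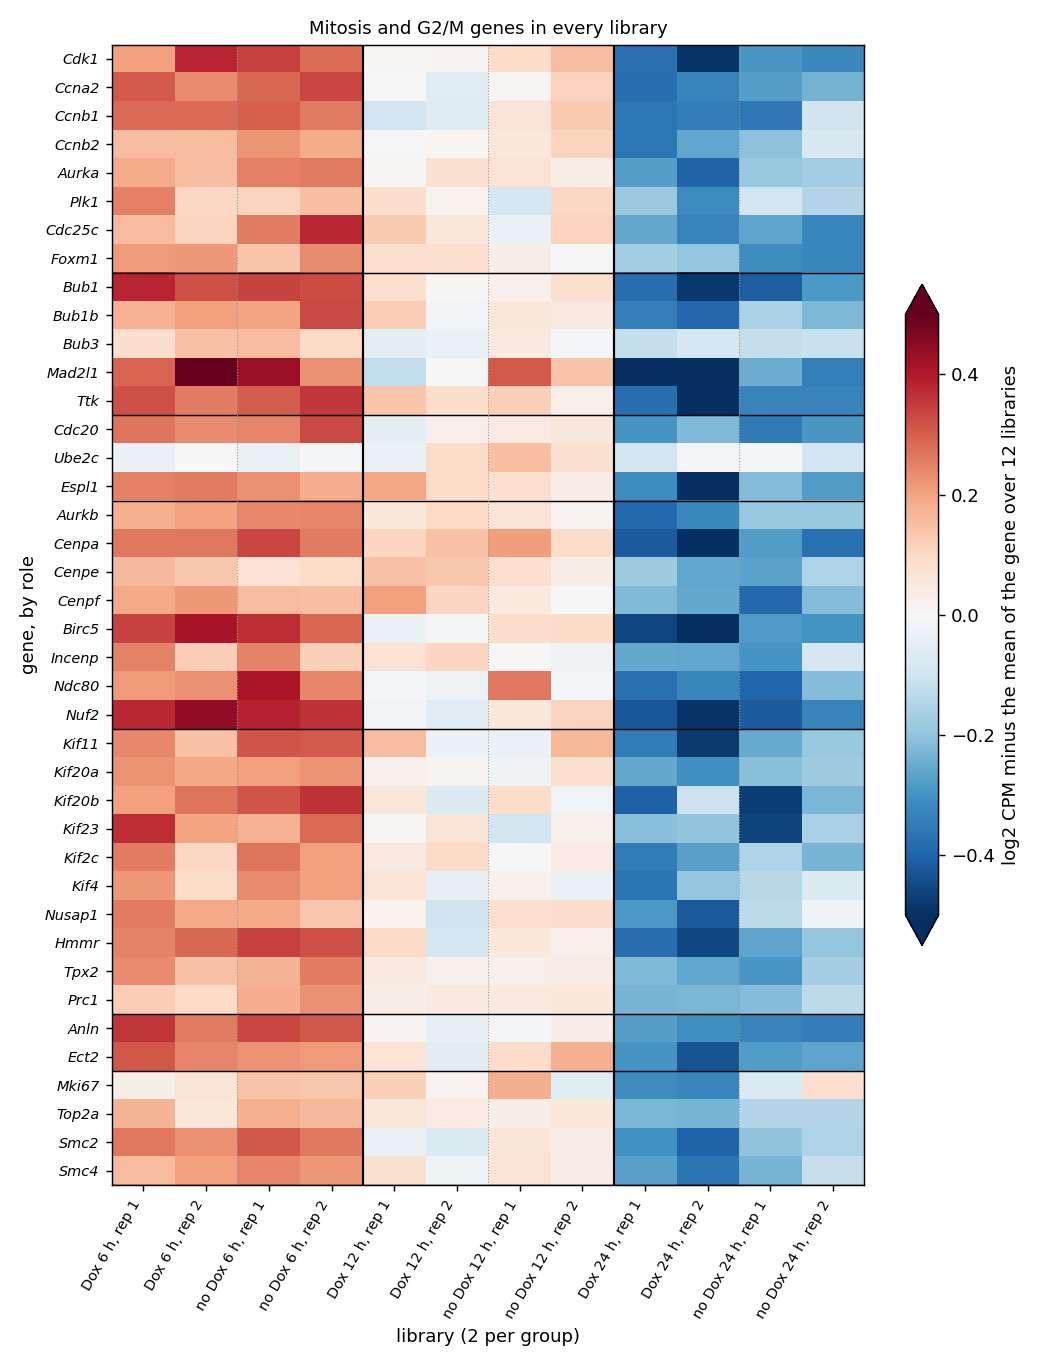
Log2 CPM of each of the 40 genes (rows, by role) in each of the 12 libraries (columns), minus the mean of the gene over the 12 libraries; red is above and blue below that mean. The 4 libraries of 24 h are blue for nearly every gene in both arms, and the row of Ube2c stays pale throughout.

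Library totals ran from 13485804 to 35250074 counts, and each group held 1 library of at most 15429846 counts and 1 of at least 27516106. Sox7, the induced gene, had 326 and 314 CPM (counts scaled to a common library size) with Dox against 77.9 and 81.7 CPM without Dox at 6 h, and every Dox library exceeded every untreated one at each hour. Its log2 fold change was 2.01 at 6 h, 2.58 at 12 h and 2.68 at 24 h. The 12 endothelial markers summed to 3020 and 3250 CPM with Dox against 2860 and 2880 CPM without Dox at 6 h. At 12 h they summed to 2910 and 3010 CPM with Dox against 2550 and 2790 CPM without Dox, and at 24 h to 2660 and 2760 CPM with Dox against 2360 and 2380 CPM without Dox. The endothelial sums of 24 h thus lay below those of 6 h in both arms, as the sums of the mitotic genes did, and those with Dox lay above the untreated ones at every hour. Single markers did not all follow the sum. With Dox, Kdr had 622 and 676 CPM at 6 h and 460 and 481 CPM at 24 h, while Cdh5 overlapped, at 706 and 764 CPM and 696 and 741 CPM. Cd34 had 280 and 271 CPM with Dox against 382 and 385 CPM without Dox at 24 h. At that hour 7 of the 12 were called higher with Dox and 1 lower, where 4.50% and 6.52% of all tested genes were. Summed marker levels of other cell types also differed between the arms and the hours. The 12 pan-haematopoietic markers summed to 936 and 945 CPM with Dox against 1310 and 1370 CPM without Dox at 24 h, and to between 737 and 798 CPM in the 4 libraries of 6 h. These sums weigh the abundant markers most. At 24 h Cd44 had 636 and 646 CPM with Dox against 607 and 631 CPM without Dox, and Plek had 123 and 113 CPM against 378 and 397 CPM. Of the 12, 9 were called lower with Dox at 24 h and 0 higher, where 6.52% and 4.50% of all tested genes were. The 10 myeloid markers summed to 54.4 and 59.6 CPM with Dox against 156 and 164 CPM without Dox at 24 h, and to between 32.7 and 44.1 CPM at 6 h. The 10 smooth muscle and mesenchyme markers summed to 8910 and 8950 CPM with Dox and to 9500 and 9760 CPM without Dox at 24 h, against 7430 to 7840 CPM at 6 h. Acta2, the most abundant of them, had 5310 and 5380 CPM with Dox against 5240 and 5160 CPM without Dox at 24 h. Of the 10, 5 were called lower with Dox at 24 h and 0 higher, against the same shares of all tested genes. The 10 erythroid markers summed to 1270 and 1550 CPM with Dox against 2460 and 2750 CPM without Dox at 24 h. No marker of these lists was at 0 in all libraries, and the part of cell composition in the results below was not tested. In bulk RNA a smaller share of dividing cells and less mitotic RNA per cell cannot be told apart.

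The 40 genes together took up 5031 and 4971 CPM with Dox against 5106 and 5083 CPM without Dox at 6 h. At 12 h the sums were 4514 and 4385 CPM with Dox and 4537 and 4491 CPM without Dox, and at 24 h they were 3552 and 3471 CPM with Dox and 3694 and 3857 CPM without Dox. The sums of the 3 hours did not overlap in either arm. Within an hour the 2 arms overlapped at 12 h, and the Dox libraries lay below the untreated ones at 6 h and 24 h. The genes made up between 0.343% and 0.511% of all counts of a library.

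Levels can be compared between genes only per length, which the RPKM values give. Bub3, a checkpoint protein that docks at kinetochores, had the highest mean over the 12 libraries at 49.0 RPKM. Ccna2, which encodes cyclin A2, followed at 47.0 RPKM, and Cdc20, the activator of the anaphase-promoting complex, at 45.4 RPKM. Ttk, which encodes the checkpoint kinase MPS1, had the lowest mean at 6.50 RPKM, next to Cdc25c, a phosphatase that activates CDK1, at 7.13 RPKM. The order at the ends was not sharp. Bub3 ran from 44.7 to 54.4 RPKM and Ccna2 from 35.3 to 58.5 RPKM over the 12 libraries, so that Ccna2 lay above Bub3 at 6 h and below it at 24 h. Ttk ran from 4.24 to 8.15 RPKM. Among all tested genes, Bub3 stood between the percentiles 92.1 and 93.3 of RPKM and Ttk between the percentiles 43.2 and 57.7. No gene of the 40 was at the edge of detection, since the smallest count was 164, for Cdc25c in 1 library.

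**Figure D2:**
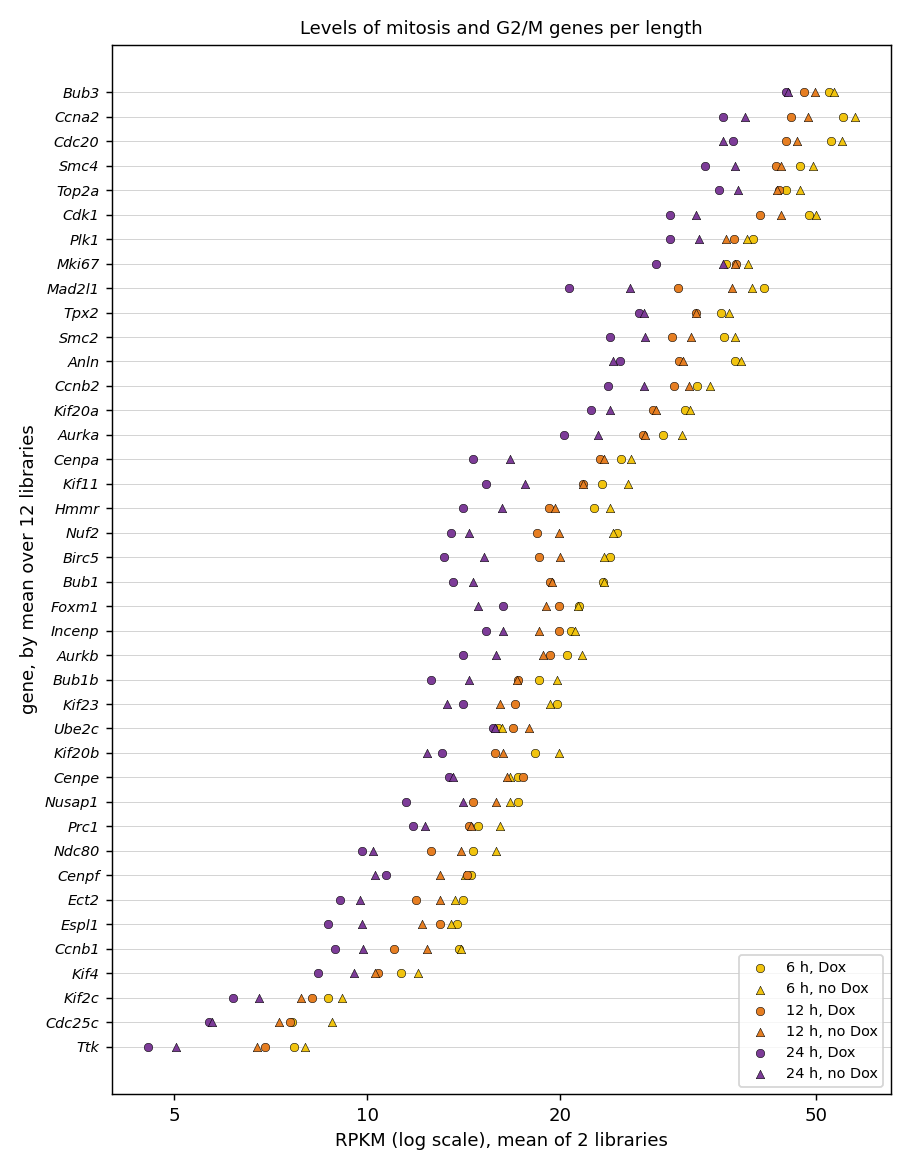
Mean RPKM of 2 libraries (log axis) for each of the 40 genes, ordered by the mean over 12 libraries; circles are Dox, triangles no Dox, and colour gives the hour. The points of 24 h lie clearly left of those of 6 h for nearly every gene, by the least for Ube2c, whose 6 points lie close together.

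The promoters were read because the genes moved together. RefSeq promoter windows of build GRCm38.p6, from 250 bases before to 50 bases after the annotated start, were found for 32 of the 40 genes in 35 windows. The 5 shown are those of Cdk1 and Ccnb2 (cyclin B2), which fell in both arms, of Mki67, the gene called with Dox at 24 h with the smallest p, of Ube2c, which was not called in any comparison, and of Mad2l1, which fell most in the Dox arm. Capitals mark the letters searched for the NF-Y box, which are CCAAT, or ATTGG where the box lies on the other strand. They also mark those searched for the CHR, which are TTTGAA, or TTCAAA on the other strand. Each is written 5′ to 3′ on the strand of the gene.
Cdk1 (chr10:69352863-69353162, minus strand): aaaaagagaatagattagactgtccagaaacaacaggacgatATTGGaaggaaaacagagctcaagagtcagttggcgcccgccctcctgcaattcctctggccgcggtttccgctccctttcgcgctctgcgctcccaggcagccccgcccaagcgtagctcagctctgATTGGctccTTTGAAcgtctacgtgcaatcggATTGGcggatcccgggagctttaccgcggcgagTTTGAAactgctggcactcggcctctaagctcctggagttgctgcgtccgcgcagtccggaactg
Ccnb2 (chr9:70421505-70421804, minus strand): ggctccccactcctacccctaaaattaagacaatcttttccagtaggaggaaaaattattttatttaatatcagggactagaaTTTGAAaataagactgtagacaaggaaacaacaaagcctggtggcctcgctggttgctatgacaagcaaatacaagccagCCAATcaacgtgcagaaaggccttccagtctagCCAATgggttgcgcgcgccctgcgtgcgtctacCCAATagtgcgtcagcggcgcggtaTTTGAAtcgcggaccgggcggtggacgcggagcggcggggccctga
Mki67 (chr7:135716330-135716629, minus strand): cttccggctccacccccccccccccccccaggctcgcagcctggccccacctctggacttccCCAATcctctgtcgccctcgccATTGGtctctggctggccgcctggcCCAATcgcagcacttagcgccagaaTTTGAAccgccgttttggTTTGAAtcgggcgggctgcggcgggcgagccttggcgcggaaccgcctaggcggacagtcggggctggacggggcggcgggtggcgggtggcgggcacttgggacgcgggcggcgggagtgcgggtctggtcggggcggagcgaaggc
Ube2c (chr2:164769679-164769978, plus strand): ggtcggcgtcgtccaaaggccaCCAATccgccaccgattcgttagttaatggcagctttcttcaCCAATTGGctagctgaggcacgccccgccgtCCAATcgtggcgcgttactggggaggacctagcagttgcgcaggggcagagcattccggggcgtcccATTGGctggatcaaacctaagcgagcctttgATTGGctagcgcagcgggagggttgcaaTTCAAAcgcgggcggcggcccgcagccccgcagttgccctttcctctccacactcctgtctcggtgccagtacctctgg
Mad2l1 (chr6:66534971-66535270, plus strand): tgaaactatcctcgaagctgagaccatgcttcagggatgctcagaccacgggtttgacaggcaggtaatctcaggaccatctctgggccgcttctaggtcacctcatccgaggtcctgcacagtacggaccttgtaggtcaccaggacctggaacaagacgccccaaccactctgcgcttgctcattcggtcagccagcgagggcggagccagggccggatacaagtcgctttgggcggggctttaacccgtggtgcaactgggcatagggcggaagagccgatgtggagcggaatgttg
The windows of Cdk1, Ccnb2 and Mki67 each hold 3 CCAAT and 2 TTTGAA. That of Ube2c holds 6 CCAAT, a pair of which share bases, and 1 TTTGAA. That of Mad2l1 holds neither. It ends at base 66535270, before the start of the counted gene at base 66535390, so the bases around that start were not searched. The windows of Kif2c and Kif4, not shown, do not hold the start of the counted gene either. That of Kif2c ends at base 117179022, where the gene starts at base 117182639 on the minus strand. That of Kif4 begins at base 100625815, after the start at base 100625737 on the plus strand. Both windows hold a TTTGAA and are counted in the shares and medians below.

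Over the 35 windows of the mitotic genes, 77.1% held CCAAT, against 37.4% of all 32851 RefSeq windows, in which the mitotic genes are included. TTTGAA was in 80.0% of the mitotic windows, against 17.9% of all windows. Both were in 68.6% of the mitotic windows, against 6.95% of all. At least 2 CCAAT were in 51.4% of the mitotic windows, against 11.7% of all. The G1/S and DNA replication genes, which act earlier in the cycle, had CCAAT in 59.5% and TTTGAA in 10.8% of 37 windows. Other lists of mitotic genes held the motifs more often than all windows too. CCAAT was in 68.8% and TTTGAA in 50% of the windows of other spindle genes, in 69.7% and 33.3% of those of other kinetochore genes, and in 61.3% and 22.6% of those of other genes of mitotic entry. Condensin and cohesin genes had 37.5% for each motif, and the DREAM, MuvB and E2F regulators had 41.9% and 25.8%. The matches had preferred places. A TTTGAA began in the first 50 bases after the start in 45.7% of the mitotic windows, against 2.25% of all windows, and a CCAAT began between 100 and 50 bases before the start in 45.7%, against 12.5% of all.

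**Figure D3:**
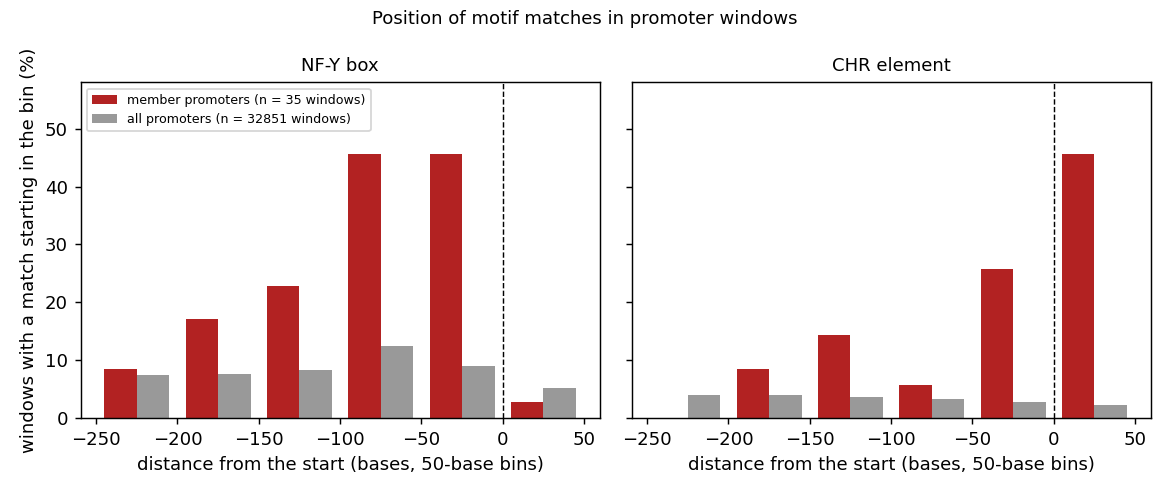
Share of promoter windows (percent) with a match that begins in each 50-base bin, by distance from the annotated start, for CCAAT or its reverse (left, titled NF-Y box) and for TTTGAA or its reverse (right, titled CHR element); red bars are the 35 windows of the mitotic genes and grey bars all 32851 windows. In the mitotic windows CCAAT matches concentrate in the 100 bases before the start and TTTGAA matches just after it.

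A match of these letters is a description of the window and does not show binding. The 7 genes with a window and no TTTGAA were Birc5, Bub1, Ccnb1, Cenpe, Mad2l1, Nuf2 and Nusap1. Their median log2 fold change between 24 h and 6 h was -0.77 with Dox and -0.62 without Dox. The 25 genes with TTTGAA had medians of -0.50 with Dox and -0.46 without Dox. Ube2c, whose window holds both motifs, was among those 25. Whether the motif bears on the fall was not tested. Only the letters given were searched, so a window without them may hold a CHR of another spelling.

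The course over the hours was followed in each arm on its own, with edgeR's quasi-likelihood test and Benjamini-Hochberg adjustment over all tested genes. The threshold for a call was an adjusted p of 0.05, and errors beside log2 fold changes are standard errors. In cells with Dox, 19 genes fell by 12 h relative to 6 h, where 10.1% of all tested genes were called lower. At 24 h relative to 12 h 38 fell, against 5.98% of all tested genes, and relative to 6 h 39 fell. In cells without Dox, 19 fell by 12 h relative to 6 h, against 3.07% of all tested genes. At 24 h relative to 12 h 33 fell, against 10.2%, and relative to 6 h 38 fell. The share of genes called was far above the background in each of these 6 comparisons. Libraries pointed the same way, since 39 of the 40 genes had lower CPM in both 24 h libraries than in both 6 h libraries with Dox, and 39 without Dox, where 33.8% and 33.9% of all tested genes did so. Over both arms, 38 of the 40 had every 24 h library below every 6 h library, against 20.8% of all tested genes, the exceptions being Mki67 and Ube2c. The counts at 12 h relative to 6 h depended on single libraries. In cells without Dox they ran from 4 to 8 when any 1 of the 4 libraries was left out, with 5 without replicate 1 and 8 without replicate 2 of 12 h, and 4 without replicate 1 and 7 without replicate 2 of 6 h. In cells with Dox they ran from 10 to 12, with 12 without replicate 1 and 10 without replicate 2 of 12 h, and 11 without replicate 1 and 12 without replicate 2 of 6 h.

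The fall went on over both steps. The median log2 fold change of the 40 genes was -0.15 at 12 h relative to 6 h and -0.35 at 24 h relative to 12 h with Dox, and -0.19 and -0.26 for the same steps without Dox. The later step also lasts longer, and no rate was compared. Hour of Dox and hours in culture run together, so they cannot be told apart within the Dox arm.

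**Figure D4:**
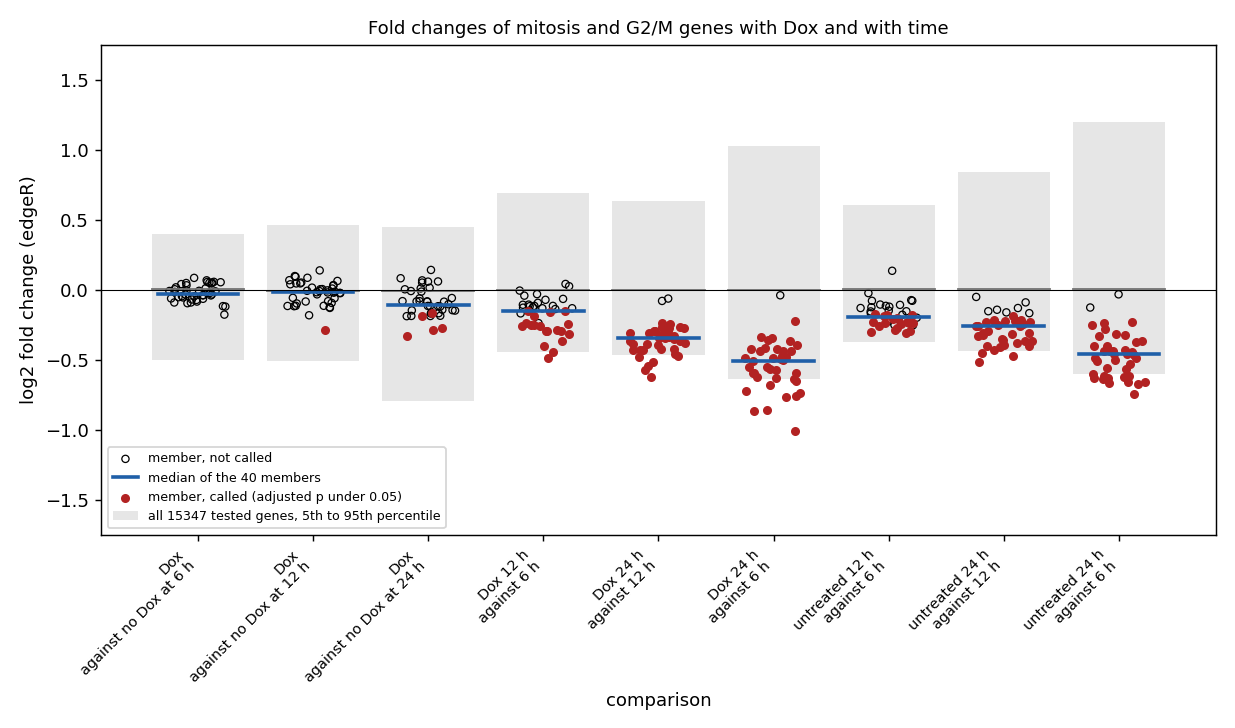
Log2 fold change (edgeR) of each of the 40 genes in 9 comparisons; filled red points were called at an adjusted p under 0.05, open points were not, blue bars are the medians of the 40 genes and grey boxes span percentiles 5 to 95 of all 15347 tested genes. The 3 Dox comparisons on the left lie around 0, with a median of -0.11 at 24 h, while all 40 points of each comparison between 24 h and 6 h lie below 0.

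Of the 8 genes for the kinases, cyclins and regulators of mitotic entry, all 8 fell between 24 h and 6 h in both arms. Cdk1, the kinase that drives entry, had 174 and 196 CPM at 6 h, 152 and 152 CPM at 12 h and 117 and 107 CPM at 24 h with Dox. Without Dox it had 191 and 183 CPM at 6 h, 161 and 168 CPM at 12 h and 123 and 121 CPM at 24 h. The 3 hours did not overlap in either arm. Its log2 fold change between 24 h and 6 h was -0.72 ± 0.06 with Dox (adjusted p = 8.06e-11) and -0.62 ± 0.06 without Dox (adjusted p = 1.2e-09). Ccna2, the cyclin that carries CDK activity into mitosis, fell by 0.63 on the log2 scale with Dox and by 0.57 without Dox. Ccnb1, the main mitotic cyclin, had 64.3 and 64.4 CPM at 6 h, 49.5 and 50.5 CPM at 12 h and 41.1 and 41.6 CPM at 24 h with Dox. The untreated libraries had 65.1 and 63.2 CPM at 6 h, 55.3 and 57.9 CPM at 12 h and 41.3 and 49.3 CPM at 24 h. Ccnb1 has processed pseudogenes of up to 99.2% identity over 1287 bases, so its counts may hold or miss reads of these copies. Plk1, the polo-like kinase of mitotic entry and cytokinesis, had 102 and 91.9 CPM at 6 h, 90.9 and 86.6 CPM at 12 h and 75.3 and 68.7 CPM at 24 h with Dox. In untreated cells the values were 92.6 and 94.9 CPM at 6 h, 80.8 and 92.0 CPM at 12 h and 80.4 and 77.3 CPM at 24 h, and the libraries of 12 h and 24 h came as close as 80.8 and 80.4 CPM. Its log2 fold change between 24 h and 6 h was -0.42 ± 0.07 with Dox and -0.25 ± 0.07 without Dox. The untreated call had an adjusted p of 0.0599 without replicate 2 of 24 h. Foxm1, the transcription factor that activates many of the other genes here, fell by 0.40 with Dox and by 0.50 without Dox. Aurka, the Aurora kinase of the spindle poles, fell by 0.50 with Dox and by 0.44 without Dox. Ccnb2 fell by 0.47 with Dox and by 0.33 without Dox, and Cdc25c by 0.42 with Dox and by 0.61 without Dox.

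The 5 spindle checkpoint genes all fell between 24 h and 6 h in both arms, with medians of -0.74 with Dox and -0.64 without Dox, the lowest medians of the 7 roles in both arms. Mad2l1, which encodes the MAD2 inhibitor of CDC20, had 92.6 and 109 CPM at 6 h, 69.5 and 75.6 CPM at 12 h and 53.5 and 46.2 CPM at 24 h with Dox. Without Dox the values were 102 and 88.6 CPM at 6 h, 93.6 and 83.4 CPM at 12 h and 63.6 and 59.7 CPM at 24 h. With Dox the 3 hours were apart, while without Dox those of 6 h and 12 h overlapped. It fell by 1.01 ± 0.08 on the log2 scale with Dox between 24 h and 6 h (adjusted p = 1.04e-10), the largest fall of the 40 genes in that arm, and by 0.64 ± 0.08 without Dox. Bub1, a checkpoint kinase of the kinetochore, had 114 and 110 CPM at 6 h, 93.1 and 88.2 CPM at 12 h and 67.7 and 62.8 CPM at 24 h with Dox. Its untreated libraries had 111 and 110 CPM at 6 h, 89.2 and 93.3 CPM at 12 h and 66.0 and 72.1 CPM at 24 h. Both arms stepped down at each hour without overlap, and the log2 fold changes between 24 h and 6 h were -0.77 ± 0.06 with Dox and -0.67 ± 0.06 without Dox. Ttk fell by 0.74 with Dox and by 0.66 without Dox, and Bub1b, which encodes the checkpoint protein BUBR1, by 0.55 with Dox and by 0.46 without Dox. Bub3 fell least, by 0.22 with Dox and by 0.24 without Dox.

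Among the 3 genes of the anaphase-promoting complex and separase, Cdc20 and Espl1 fell and Ube2c did not pass the test. Cdc20 fell by 0.51 with Dox and by 0.60 without Dox between 24 h and 6 h. Espl1, which encodes separase, fell by 0.66 with Dox and by 0.46 without Dox. Ube2c had 45.4 and 46.3 CPM at 6 h, 45.4 and 49.5 CPM at 12 h and 43.5 and 46.0 CPM at 24 h with Dox. Untreated cells had 45.2 and 46.2 CPM at 6 h, 51.5 and 48.9 CPM at 12 h and 46.0 and 43.4 CPM at 24 h. All hours and both arms overlapped except for the untreated 12 h libraries, which were above those of 6 h and 24 h. Its log2 fold change between 24 h and 6 h was -0.04 with Dox (95% interval -0.19 to 0.11, adjusted p = 0.706) and -0.03 without Dox (-0.19 to 0.12, adjusted p = 0.756). These intervals do not reach the median change of the 40 genes in either arm. Ube2c shares 592 exon bases with Tnnc2 on the opposite strand, and Tnnc2 had at most 0.105 CPM in any library.

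**Figure D5:**
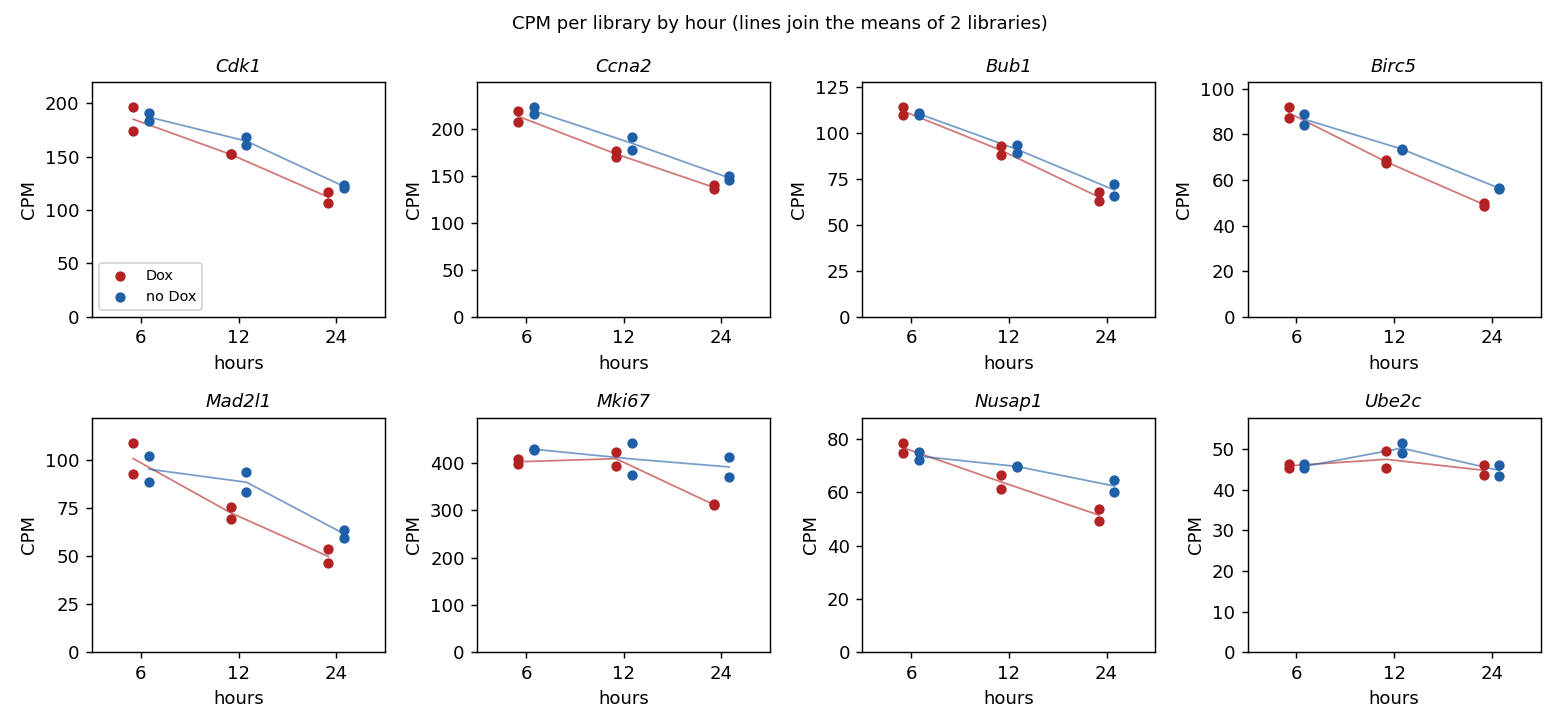
CPM (scaled counts, axes from 0) of 8 genes in every library by hour; red points are Dox, blue points no Dox, and lines join the means of 2 libraries. Cdk1, Ccna2, Bub1, Birc5 and Mad2l1 step down in both arms, Mki67 and Nusap1 end lower with Dox, and Ube2c stays between 43.4 and 51.5 CPM.

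The 8 centromere and kinetochore genes all fell between 24 h and 6 h in both arms. Birc5, which encodes survivin of the chromosomal passenger complex, had 87.2 and 91.8 CPM at 6 h, 67.3 and 68.6 CPM at 12 h and 50.1 and 48.4 CPM at 24 h with Dox. Without Dox it had 89.0 and 84.3 CPM at 6 h, 73.3 and 73.8 CPM at 12 h and 56.6 and 56.1 CPM at 24 h. No hours overlapped, and it fell by 0.86 ± 0.06 with Dox (adjusted p = 1.11e-11) and by 0.62 ± 0.06 without Dox (adjusted p = 3.77e-09). Nuf2, a subunit of the kinetochore complex that grips microtubules, had 65.5 and 68.6 CPM at 6 h, 49.99 and 48.5 CPM at 12 h and 37.5 and 35.9 CPM at 24 h with Dox. The untreated libraries had 65.9 and 64.7 CPM at 6 h, 52.3 and 54.5 CPM at 12 h and 37.7 and 39.99 CPM at 24 h. It fell by 0.87 ± 0.07 with Dox and by 0.74 ± 0.07 without Dox, the largest fall of the 40 genes in the untreated arm. Ndc80, of the same complex, fell by 0.58 with Dox and by 0.63 without Dox. Cenpa, the histone H3 variant that marks centromeres, fell by 0.76 with Dox and by 0.63 without Dox. Its fall came late, by 0.62 with Dox and by 0.48 without Dox between 24 h and 12 h. Aurkb, the Aurora kinase of the passenger complex, fell by 0.55 with Dox and by 0.43 without Dox, and its scaffold Incenp by 0.44 with Dox and by 0.36 without Dox. Cenpf, a large kinetochore protein, fell by 0.44 with Dox and by 0.45 without Dox. Cenpe, the kinetochore kinesin, fell by 0.36 with Dox and by 0.28 without Dox, and was not called at 12 h relative to 6 h in either arm, with log2 fold changes of -0.01 and -0.03.

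The 10 genes for spindle motors and microtubule proteins all fell between 24 h and 6 h in both arms, with medians of -0.49 with Dox and -0.44 without Dox. Hmmr, a microtubule-binding protein of the spindle poles, had 133 and 137 CPM at 6 h, 120.0 and 105 CPM at 12 h and 86.3 and 81.8 CPM at 24 h with Dox. In untreated cells the values were 142 and 140.3 CPM at 6 h, 116 and 114 CPM at 12 h and 93.3 and 98.1 CPM at 24 h. Each arm stepped down without overlap, by 0.68 ± 0.06 with Dox and by 0.56 ± 0.06 without Dox. Kif11, the kinesin that pushes the spindle poles apart, fell by 0.60 with Dox and by 0.53 without Dox. Kif20b, a kinesin of cytokinesis, fell by 0.50 with Dox and by 0.67 without Dox. Tpx2, which activates Aurora A on the spindle, fell by 0.43 with Dox and by 0.44 without Dox. Prc1, which bundles microtubules of the central spindle, fell by 0.34 with Dox and by 0.37 without Dox. The other kinesins of the list, Kif20a, Kif23, Kif2c and Kif4, fell by 0.49, 0.48, 0.49 and 0.44 with Dox and by 0.41, 0.51, 0.44 and 0.32 without Dox. Nusap1, which binds spindle microtubules near chromatin, fell by 0.56 ± 0.07 with Dox and by 0.23 ± 0.07 without Dox, and its untreated call was lost without replicate 1 of 24 h or replicate 1 of 6 h, where its adjusted p reached 0.0771.

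Both cytokinesis genes fell. Anln, which encodes the actin-binding anillin of the cleavage furrow, had 231 and 216 CPM at 6 h, 182 and 175 CPM at 12 h and 149 and 146 CPM at 24 h with Dox. Without Dox the values were 228 and 224 CPM at 6 h, 180.0 and 184 CPM at 12 h and 143 and 142 CPM at 24 h. Its hours did not overlap, it fell by 0.60 ± 0.05 with Dox and by 0.66 ± 0.05 without Dox, and in the untreated arm it had the smallest p of the 40 genes (adjusted p = 2.04e-11). Ect2, the exchange factor that activates RhoA for cytokinesis, fell by 0.63 with Dox and by 0.49 without Dox.

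Of the 4 chromosome structure and proliferation genes, all 4 fell between 24 h and 6 h with Dox and 3 without Dox. Top2a, the topoisomerase that untangles sister chromatids, had 464 and 429 CPM at 6 h, 428 and 423 CPM at 12 h and 351 and 351 CPM at 24 h with Dox. Its untreated libraries had 466 and 460.4 CPM at 6 h, 422 and 428 CPM at 12 h and 372 and 372 CPM at 24 h. It fell by 0.35 ± 0.05 with Dox and by 0.32 ± 0.05 without Dox. Smc2 and Smc4, the core pair of condensin, fell by 0.59 and 0.50 with Dox and by 0.46 and 0.40 without Dox. Mki67, which encodes the proliferation marker Ki-67, had 398 and 408 CPM at 6 h, 424 and 395 CPM at 12 h and 314 and 311 CPM at 24 h with Dox. Untreated cells had 431 and 428 CPM at 6 h, 443 and 375 CPM at 12 h and 371 and 413 CPM at 24 h. With Dox both 24 h libraries lay below all earlier ones, while without Dox the libraries of 12 h and 24 h overlapped. Mki67 fell by 0.37 ± 0.06 with Dox between 24 h and 6 h (adjusted p = 2.1e-05). Without Dox its log2 fold change was -0.13 ± 0.06 (adjusted p = 0.0969), and it was called there in 3 of 13 alternative fits.

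The comparison of Dox with no Dox at a given hour asks whether the programme differed with Dox. At 6 h none of the 40 genes was called by edgeR's quasi-likelihood test, where 1.54% of all tested genes were called in either direction. None had an unadjusted p under 0.05 either, and DESeq2 and limma also called 0. The 3 smallest p-values belonged to Kif11, Prc1 and Cdc25c. Kif11 had 127 and 119 CPM with Dox against 134 and 133 CPM without Dox, or -0.12 ± 0.07 in log2 fold change (adjusted p = 0.578). Prc1 had 136 and 134 CPM with Dox against 141 and 146 CPM without Dox, and Cdc25c had 16.6 and 16.1 CPM with Dox against 17.8 and 19.3 CPM without Dox. Their log2 fold changes were -0.09 ± 0.05 and -0.18 ± 0.11 (adjusted p = 0.609 and 0.635), and the libraries of each of the 3 genes did not overlap. Over the 40 genes 11 had both Dox libraries below both untreated ones and 4 had them above, where 19.7% of all tested genes did so in each direction. The median log2 fold change was -0.03.

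At 12 h Mad2l1 alone was called, lower with Dox, where 3.51% of all tested genes were called lower. It had 69.5 and 75.6 CPM with Dox against 93.6 and 83.4 CPM without Dox, which did not overlap. Its log2 fold change was -0.29 ± 0.08 (adjusted p = 0.0302). DESeq2 and limma on the RPKM values did not call it. It was also lost without replicate 1 of either group, and its adjusted p reached 0.361. Ccnb1 had 49.5 and 50.5 CPM with Dox against 55.3 and 57.9 CPM without Dox, or -0.18 ± 0.07 in log2 fold change (adjusted p = 0.142). Cenpf had 181 and 170 CPM with Dox against 163 and 158 CPM without Dox, or 0.14 ± 0.06 in log2 fold change (adjusted p = 0.151). In 14 genes both Dox libraries were below both untreated ones and in 6 they were above, where 25.7% and 23.2% of all tested genes were. The median log2 fold change was -0.02.

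At 24 h 5 genes were called lower with Dox and none higher, where 6.52% of all tested genes were called lower and 4.50% higher. Mki67 had 314 and 311 CPM with Dox against 371 and 413 CPM without Dox, means of 312 ± 2.04 and 392 ± 29.7 CPM (SD, n = 2 each). Its log2 fold change was -0.33 ± 0.06 (adjusted p = 0.000276), and its adjusted p was 0.0531 without replicate 2 of the untreated 24 h cells. Nusap1 had 53.9 and 49.1 CPM with Dox against 60.1 and 64.7 CPM without Dox, or -0.27 ± 0.07 in log2 fold change (adjusted p = 0.0072). Mad2l1 had 53.5 and 46.2 CPM with Dox against 63.6 and 59.7 CPM without Dox, or -0.29 ± 0.09 in log2 fold change (adjusted p = 0.0259). Smc2 had 149 and 139 CPM with Dox against 159 and 164 CPM without Dox, or -0.17 ± 0.05 in log2 fold change (adjusted p = 0.0306). Hmmr had 86.3 and 81.8 CPM with Dox against 93.3 and 98.1 CPM without Dox, or -0.19 ± 0.06 in log2 fold change (adjusted p = 0.049). The libraries of all 5 genes were apart, and the Dox ones were the lower. The count of 5 rested on single libraries. It was 0 without replicate 2 and 2 without replicate 1 of the untreated cells, 1 without replicate 2 of the Dox cells and 5 without replicate 1 of the Dox cells. Without replicate 2 of either group Nusap1 was no longer called, and Mad2l1 and Smc2 were lost there and also without replicate 1 of the untreated cells. Limma on the RPKM values at either pseudocount did not call Mad2l1 either, whose adjusted p ran up to 0.336 over the alternatives. Hmmr passed in 4 of 13 alternative fits.

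Of the 40 genes 31 had a negative log2 fold change, with a median of -0.11, against -0.01 over all tested genes. In 25 of the 40 both Dox libraries were below both untreated ones, against 26.0% of all tested genes, and in 2, Foxm1 and Anln, they were above, against 23.5%. At an unadjusted p under 0.05, 15 were lower, against 11.9% of all tested genes, and 1, Foxm1, was higher, against 9.45%. Foxm1 had 99.3 and 97.7 CPM with Dox against 89.9 and 89.0 CPM without Dox, or 0.14 ± 0.06 in log2 fold change (adjusted p = 0.121). Birc5 had 50.1 and 48.4 CPM with Dox against 56.6 and 56.1 CPM without Dox, or -0.19 ± 0.07 in log2 fold change (adjusted p = 0.0605). Aurkb had 44.5 and 46.6 CPM with Dox against 51.0 and 51.2 CPM without Dox, or -0.17 ± 0.07 in log2 fold change (adjusted p = 0.113). Cdk1 was at -0.12 (95% interval -0.24 to 0.01), Ccnb1 at -0.15 (-0.31 to 0.01), Plk1 at -0.12 (-0.26 to 0.02) and Top2a at -0.08 (-0.18 to 0.02). None of these 4 intervals goes beyond a log2 fold change of -0.31.

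Whether the effect of Dox differed between hours was tested directly. Between 24 h and 12 h 1 gene, Mki67, was called, where 1.02% of all tested genes were called lower. The effect on Mki67 was -0.33 at 24 h and 0.01 at 12 h, a difference of -0.34 ± 0.09 (adjusted p = 0.046). The untreated 12 h libraries that enter it lie far apart, at 443 and 375 CPM. The call was lost without replicate 2 of the untreated cells at 12 h or 24 h, without replicate 1 of the Dox cells at 12 h and without either Dox library of 24 h, where the adjusted p ran up to 0.386. The next smallest p-values were those of Espl1, with a difference of -0.24 (adjusted p = 0.286), and Aurkb, with -0.21 (adjusted p = 0.403). Between 24 h and 6 h edgeR called 0 of the 40 genes, against 2.08% of all tested genes, 5 had an unadjusted p under 0.05, against 10.6%, and DESeq2 and limma called 0. The smallest p was that of Nusap1, with a difference of -0.33 ± 0.10 (adjusted p = 0.0813), followed by Mad2l1 at -0.37 ± 0.12 (adjusted p = 0.121) and Mki67 at -0.24 (adjusted p = 0.22). Between 12 h and 6 h edgeR called 0, against 0.417% of all tested genes, 1 had an unadjusted p under 0.05, against 10.2%, and DESeq2 and limma called 0. Mad2l1 had the smallest p there, with a difference of -0.37 ± 0.11 (adjusted p = 0.165), followed by Ect2 at -0.18 and Birc5 at -0.16. The 3 tests share libraries and are not independent of each other.

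Other genes of the same machinery were taken from 6 lists of genes that are not among the 40, in which 178 of 179 genes were tested. Between 24 h and 6 h, 19.9% of all tested genes were called lower with Dox and 19.6% without Dox. Called higher were 2976 of the 15347 tested genes with Dox and 3267 without Dox. In the list of other kinetochore and checkpoint genes, 26 of 33 fell with Dox between 24 h and 6 h and 27 of 33 without Dox. The medians of that list were -0.53 and -0.48. Of other spindle and cytokinesis genes, 20 of 30 fell and 3 rose with Dox, and 24 fell and 2 rose without Dox. Of other genes of mitotic entry and the anaphase-promoting complex, 21 of 29 fell and 1 rose with Dox, and 13 fell and 1 rose without Dox. Of other condensin and cohesin genes, 13 of 19 fell and 1 rose in each arm. Of the G1/S and DNA replication genes, 39 of 41 fell in each arm, with medians of -0.55 with Dox and -0.52 without Dox. The fall between 6 h and 24 h was found in the replication genes of this list too.

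With Dox at 24 h, where 6.52% of all tested genes were called lower and 4.50% higher, 1 of 33 other kinetochore genes was called lower, 1 of 30 spindle genes higher, 1 of 29 genes of mitotic entry lower, 3 of 41 G1/S genes lower, and 3 of 26 DREAM, MuvB and E2F regulators lower and 1 higher. These shares of called genes lie near or below those of all tested genes, except for the regulators called lower, which rest on 3 genes. At an unadjusted p under 0.05 at 24 h, 11.9% of all tested genes were lower with Dox and 9.45% higher. There 13 of 41 G1/S genes were lower and 0 higher, and 3 of 33 kinetochore genes lower and 0 higher. Of 30 spindle genes 0 were lower and 3 higher. Of 29 genes of mitotic entry 5 were lower and 1 higher, and of 26 regulators 5 and 3. At 12 h 11 of the G1/S genes were lower and 0 higher, against 11.0% of all lower. Cdc25b, a phosphatase that activates CDK1 at mitotic entry, had 16.4 and 13.6 CPM with Dox against 23.7 and 22.8 CPM without Dox at 24 h, or -0.60 ± 0.10 in log2 fold change (adjusted p = 6.6e-05). Dsn1, a kinetochore subunit, had 27.7 and 24.8 CPM with Dox against 30.2 and 33.3 CPM without Dox at 24 h, or -0.27 ± 0.09 in log2 fold change (adjusted p = 0.0387). Ckap2, a spindle protein, had 64.7 and 77.1 CPM with Dox against 57.0 and 60.4 CPM without Dox at 24 h, or 0.25 ± 0.07 in log2 fold change (adjusted p = 0.0211). The libraries of these 3 genes did not overlap. Anapc11, the RING subunit of the anaphase-promoting complex, had 83.8 and 81.9 CPM with Dox against 99.7 and 97.1 CPM without Dox at 12 h, or -0.25 ± 0.07 in log2 fold change (adjusted p = 0.0188). Mcm6, of the replicative helicase, had 123 and 114 CPM with Dox against 137 and 139 CPM without Dox at 24 h, or -0.22 ± 0.06 in log2 fold change (adjusted p = 0.0086). Tyms, which makes thymidylate, had 53.8 and 51.6 CPM with Dox against 70.5 and 60.3 CPM without Dox at 12 h, and Ccne2, a cyclin of S-phase entry, had 35.2 and 33.5 CPM with Dox against 50.1 and 40.5 CPM without Dox at 12 h. Both were called lower, at -0.30 ± 0.08 and -0.38 ± 0.11 (adjusted p = 0.0306 and 0.0358). Of the 19 condensin and cohesin genes edgeR called 0 with Dox at each hour, and 1 at 6 h, 1 at 12 h and 2 at 24 h had an unadjusted p under 0.05, all lower, against 4.90%, 11.0% and 11.9% of all tested genes.

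The list of DREAM, MuvB and E2F regulators, the factors that act on such promoters, held 3 genes called at 6 h, where 1.54% of all tested genes were called in either direction, and at 12 h 1 called higher and 1 lower, where 3.26% and 3.51% were. Myb, a haematopoietic relative of B-MYB, had 14.1 and 14.7 CPM with Dox against 27.2 and 24.8 CPM without Dox at 6 h, or -0.86 ± 0.11 in log2 fold change (adjusted p = 1.81e-05). Mybl1, which encodes A-MYB, had 21.1 and 23.2 CPM with Dox against 13.2 and 16 CPM without Dox at 24 h, or 0.56 ± 0.12 in log2 fold change (adjusted p = 0.000816). Rb1, which encodes the retinoblastoma protein, had 49.6 and 40.3 CPM with Dox against 34.5 and 33.3 CPM without Dox at 12 h, or 0.43 ± 0.09 in log2 fold change (adjusted p = 0.00222). The libraries of each of the 3 were apart. Between 24 h and 6 h, 9 of the 26 regulators fell and 5 rose with Dox, and 10 fell and 5 rose without Dox. Over all tested genes 19.9% fell with Dox and 19.6% without Dox, and 2976 and 3267 of 15347 rose. The list of regulators thus did not move as 1 block.

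Some of the 40 genes share sequence with other counted genes. Exons of 8 of them overlap a gene on the opposite strand, among them Ccna2 with Exosc9, Kif20a with Cdc23, Prc1 with Rccd1 and Nusap1 with Oip5. The kit kept the strand, but the strand setting of the counting is not given in the sources used here, so the values of these genes are uncertain by the reads of the partner. On the same strand Foxm1 shares 144 exon bases with 4933413G19Rik and Top2a shares 122 with Gm23451. Their values are uncertain by such reads whatever the strand setting. Oip5, the partner of Nusap1, was itself lower with Dox at 24 h, at -0.41 ± 0.12 (adjusted p = 0.0224), while Exosc9, the partner of Ccna2, was higher, at 0.35 ± 0.10 (adjusted p = 0.019).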

How the data were processed

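Whole-number counts per gene and RPKM values (reads scaled to gene length and library size) were deposited by the authors for 12 libraries, made per the labels' protocols with a strand-specific kit. The submitters' processing notes name edgeR 3.8.5, R 3.1.0, the aligner Bowtie2 2.21, SAMtools 0.1.19, bcl2fastq 2.16.0.10 and the build GRCm38. Which tool counted the reads, with which strand setting and annotation, was not given in the sources used here. Within each library the deposited RPKM values were the counts times 1 factor per library over gene length, so both tables hold the same measurement.

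The 40 genes and the other lists were chosen with earlier results of these data known. Counts were fitted with edgeR 4.0.16 in R 4.3.3 (TMM scaling, filterByExpr, quasi-likelihood test, 1 mean for each of 6 groups, all 12 libraries, 6 residual degrees of freedom). P-values were adjusted by Benjamini-Hochberg over 15347 tested genes of 41128, and intervals are 95% intervals. CPM are counts scaled to the effective library size. The coefficient of variation that edgeR estimated between libraries of a group, beyond counting error, was 4.71%. No column was left out. The fit was also run on simulated counts, drawn with the spread that edgeR had estimated from these libraries. Such counts cannot show whether that spread is technical.

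The genes named with values were Mki67, Top2a, Cdk1, Ccnb1, Plk1, Foxm1, Birc5 and Aurkb, the called genes of smallest p in each comparison (up to 5 per direction, or the 3 of smallest p where fewer than 3 were called), those of lowest and highest RPKM, and up to 3 genes of each other list. Other genes of the 40 were named for their role after their values were seen. Alternatives were upper-quartile or RLE scaling, a stricter filter or none, DESeq2 1.42.0, limma 3.58.1 on log2(RPKM + 0.1) and log2(RPKM + 1), a replicate block, only the groups compared, and leaving out each library. The totals of 13485804 to 35250074 counts set the precision, and the smallest count of the 40 genes was 164.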

Additional observations from a re-analysis of the deposited data

Results flagged for a closer look

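The effect of Dox on Mki67 differed between hours by a direct test of the difference. The log2 effect at 24 h minus that at 12 h was -0.34 (edgeR's quasi-likelihood test, adjusted p = 0.046). Mki67 had 314 and 311 CPM with Dox against 371 and 413 CPM without Dox at 24 h, and 424 and 395 CPM with Dox against 443 and 375 CPM without Dox at 12 h. Of 17 alternatives 7 kept the call, and over all of them the adjusted p ran from 0.000663 to 0.386. The difference was negative in each of these 17.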

How the results depend on the processing

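Alternatives were run for the 40 genes, for Sox7, for the counts of called genes among the 40 and among all tested genes, and for their medians. None of these genes changed sign past the threshold under any alternative run. The genes of the other lists, the markers and the genes that share exons with the 40 were not rerun. The count of the 40 genes lower with Dox at 12 h was 0 with DESeq2 and with limma at either pseudocount, and 0 to 1 when a library was left out. The count lower at 24 h was 0 to 5 when a library was left out and 4 to 6 otherwise. The count of changes in the Dox effect was 1 without the filter for 12 h minus 6 h, and 0 to 1 with a library left out. For 24 h minus 6 h it was 1 without the filter. For 24 h minus 12 h it was 0 with upper-quartile scaling, DESeq2, limma at either pseudocount and only the groups compared, and 0 to 1 with a library left out. In untreated cells at 12 h against 6 h it was 12 with upper-quartile scaling, 12 without the filter, 9 with limma at either pseudocount, and 4 to 8 with a library left out, and in Dox cells 10 to 12 with a library left out. Between 24 h and 6 h it was 39 in every fit with Dox and 37 to 39 without Dox. The median of the 40 genes at 12 h with Dox ran from -0.03 to 0.02 with a library left out, and that of untreated cells at 24 h against 12 h from -0.33 to -0.24. The cause was not tested. Of 15 correlations between groups of the difference between replicates 1 and 2, 2 were over 0.1. They cannot show whether replicate numbers pair the libraries, since replicate 1 was the shallow library in some groups and the deep one in others. A fit with the replicate block called 0, 1 and 5 genes lower with Dox at 6 h, 12 h and 24 h. With 2 libraries a group, the standard errors of the Dox effects at 24 h ran from 0.05 to 0.12 on the log2 scale over the 40 genes.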

Other observations

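The following 4 single genes were chosen after their values were seen and stand for no group, since the list of regulators that holds them went both ways. Cdkn1a, which encodes the CDK inhibitor p21, rose between 24 h and 6 h by 0.90 ± 0.06 on the log2 scale with Dox (edgeR's quasi-likelihood test, adjusted p = 1.25e-12) and by 0.93 ± 0.06 without Dox (adjusted p = 3.61e-13), and its Dox effect at 24 h was 0.00. Rbl2, which encodes the p130 repressor of DREAM, rose by 0.75 with Dox and by 0.85 without Dox. Rb1 rose by 0.48 with Dox and by 0.78 without Dox. Mybl2, which encodes B-MYB, fell by 0.68 with Dox and by 0.69 without Dox. Between 24 h and 6 h 19.9% of all tested genes were called lower with Dox and 19.6% without Dox. Called higher were 2976 of 15347 with Dox and 3267 without Dox. Whether these 4 genes bear on the fall of the mitotic genes was not tested.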
